A study of Mus musculus with 20 samples.

Results

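Dexamethasone (DEX) was compared with vehicle in mechanically loaded mouse tibiae. The comparison used 10 of the 20 RNA-seq libraries of the series, the 5 libraries of the group labelled DEX loading (DEX 1 to DEX 5) against the 5 of the group labelled vehicle loading (vehicle 1, 2, 4, 5 and a library whose column number is on no sample label, called the unnumbered vehicle library). All mice were male C57BL/6J mice, 3 months old. The DEX mice received 1 mg/kg DEX subcutaneously and the vehicle mice received water by the same route, both for 5 days. In both groups the left tibia was loaded axially in sessions of 40 cycles, each cycle holding a force of -13 N for 0.1 s with 10 s of rest, and the labels give days 1 and 3 as loading days. The study's own description instead gives a further weekly session, with tibiae frozen within hours of the last one, so the loading schedule is uncertain. The right tibiae of the study stayed unloaded and make up the other 2 groups of 5 libraries, used here for values side by side, for the test of the difference between limbs and for an alternative fit of all 4 groups. Frozen tibiae were crushed before RNA extraction, so a library holds RNA of every cell type in the bone piece, and the labels name no sort and no removal of marrow. Genes were taken as well expressed where their mean over the 10 loaded libraries was at least 10 CPM, the count scaled to a common library size. This held for 10459 of the 19780 genes tested and of the 54446 in the table.

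DEX is a synthetic agonist of the glucocorticoid receptor, a transcription factor that raises some genes directly and represses others, among them genes of inflammation. Glucocorticoids given in excess are known to lower bone formation by osteoblasts, to slow the growth plate, to deplete developing B lymphocytes and to raise the number of neutrophils in blood. Osteoblasts build bone from type I collagen, which is folded and crosslinked in the secretory pathway and on its way into the matrix, and osteocytes are osteoblast descendants buried in that matrix that sense load. Marrow, cartilage, periosteum, tendon, vessels, fat and adhering muscle contribute RNA to a crushed tibia as well.

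The members of the osteoblast, collagen, collagen folding, cartilage, periosteum and tendon, and B lineage lists were mostly lower in DEX, while the granule and maturation genes of neutrophils were higher. Of the 10459 well-expressed genes, 1495 (14.3%) were lower and 390 (3.73%) were higher at an adjusted p under 0.05 (quasi-likelihood F test of edgeR, adjusted by the Benjamini-Hochberg method over all 19780 genes; every adjusted p below is from this fit unless another is named). The median log2 fold change, DEX over vehicle, was -0.17 over the well-expressed genes. Of the lower genes, 142 had a DEX mean under 10 CPM, and of the higher ones 99 had a vehicle mean under 10 CPM, so these counted as well expressed only through the group where they were high. Of the 9902 genes with means of at least 10 CPM in both groups, 1353 were lower (13.7%) and 291 higher (2.94%), and this limit is given below for lists in which it touches more than 1 called member. In whole-bone RNA, fewer cells of a type and less RNA per cell cannot be told apart, and this holds for every list below.

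**Figure D1:**
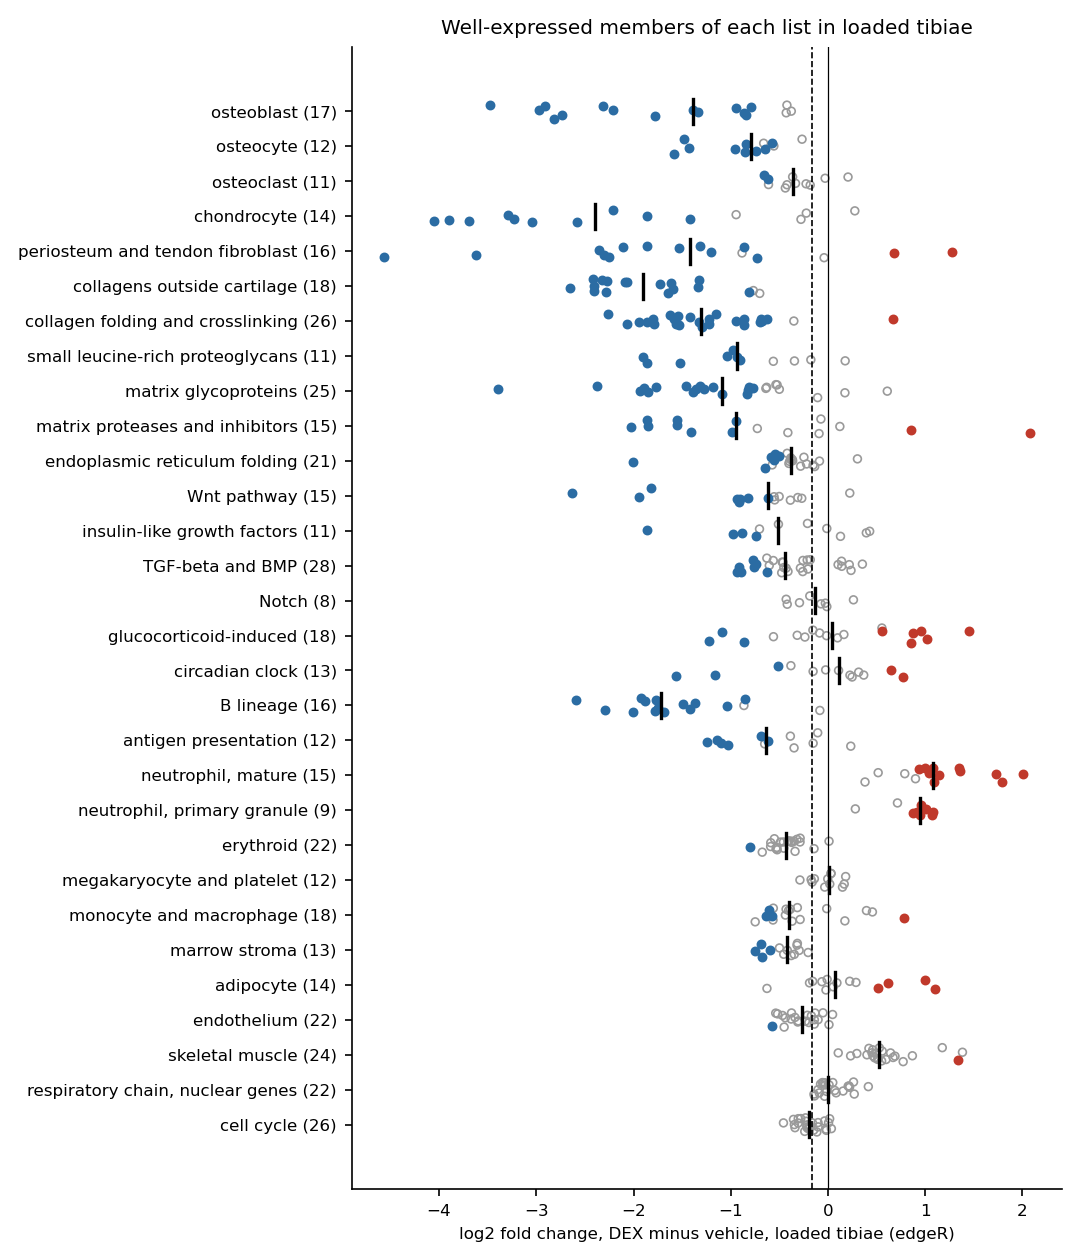
Log2 fold changes (DEX over vehicle, x axis) in loaded tibiae for the well-expressed members of each gene list (y axis, number of members in brackets). Blue points passed the test as lower, red as higher, open grey points did not pass, short bars mark list medians and the dashed line marks the median of all well-expressed genes, -0.17. The osteoblast, collagen, cartilage and B lineage members lie mostly left of that line and the neutrophil members right of it.

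The DEX libraries carried more reads at genes that bone does not use. Loaded vehicle libraries held 8157276 to 13032018 counts (median 10980414) and loaded DEX libraries held 4641437 to 10258552 (median 8650210), DEX 4 being the smallest. The summed level of 1426 olfactory and vomeronasal receptor genes, which mark reads from outside expressed genes, was 209 to 811 CPM in vehicle and 971 to 7944 CPM in DEX, with DEX 4 at the top, so the groups did not overlap and this background and the treatment cannot be told apart. Scaled by exon length, such reads were expected to make up 0.515% to 2.00% of the counts of a vehicle library, 2.40% to 7.92% in DEX 1, 2, 3 and 5, and 19.6% in DEX 4. The median log2 fold change fell with level: it was 1.12 for tested genes under 3 CPM, 0.25 from 3 to 10 CPM, -0.10 from 10 to 30 CPM and -0.27 from 300 CPM up. After the expected background was subtracted from each count, these medians were 0.32, 0.10, -0.03 and -0.04. The study removed a dataset it names DEX-4 as an outlier and does not say of which limb, whereas DEX 4 is kept in the values here. Without DEX 4, 1264 well-expressed genes were lower (12.1%) and 372 higher (3.56%), and 1220 of the 1495 and 299 of the 390 kept their call. After subtraction, 787 were lower (7.53%) and 514 higher (4.91%), and 769 of the 1495 and 316 of the 390 kept theirs. Scaling factors computed over the well-expressed genes alone moved the median of these genes from -0.17 to 0.01 and the split from 390 higher of 1885 called to 817 higher (7.81%) of 1746, with 929 lower (8.88%). List medians below are therefore read against -0.17. The number of higher genes also rested on single vehicle libraries: it was 173 without the unnumbered vehicle library, 202 without vehicle 1 and 231 without vehicle 2.

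**Figure D2:**
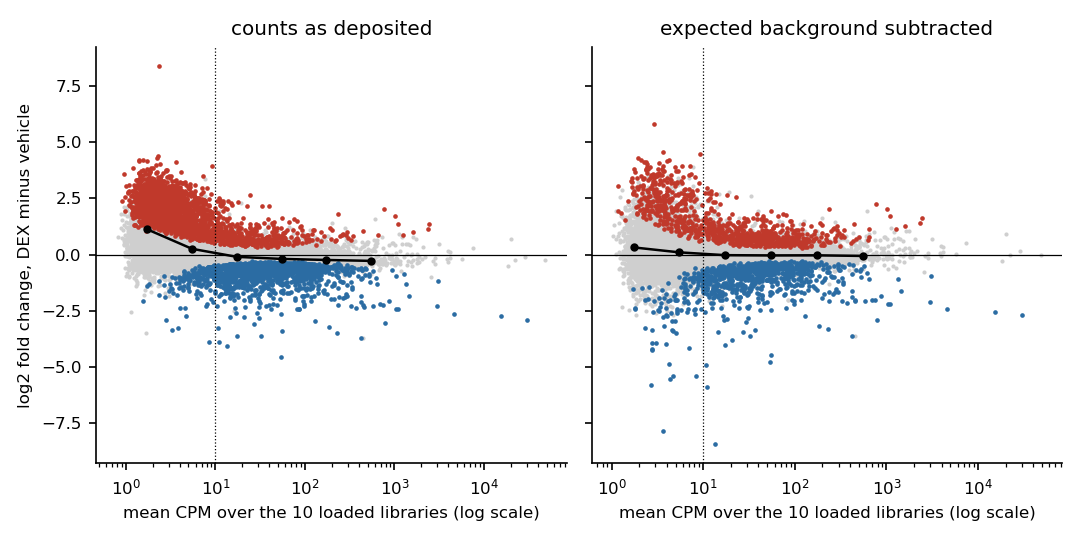
Log2 fold change (DEX over vehicle, y axis) against mean level in CPM (log x axis) for the genes tested in loaded tibiae, as deposited (left) and with the expected background subtracted (right). Blue and red points passed the test, grey points did not, the black line joins bin medians and the dotted line marks 10 CPM; as deposited, the medians run from 1.12 under 3 CPM to -0.27 from 300 CPM up, and after subtraction from 0.32 to -0.04.

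Osteoblast genes fell, and the largest change of the list was that of Bglap. Of 19 genes in the osteoblast list, all 19 passed the filter on low counts, 17 were well expressed and 14 of the 17 were lower, with a list median of -1.39. The same 14 had every DEX library below every vehicle library, which held for 13.8% of all well-expressed genes. Their summed level was 69586 to 101948 CPM in vehicle and 5994 to 26645 CPM in DEX, and the groups did not overlap. Leaving out any library gave 14 to 16 lower, and 12 were lower after background subtraction.

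Bglap encodes osteocalcin, a vitamin K-dependent protein secreted by mature osteoblasts. Per library, in the order vehicle 1, 2, 4, 5 and unnumbered and then DEX 1 to 5, which is used throughout, Bglap stood at 343, 478, 243, 620 and 412 CPM in vehicle and at 49.97, 85.8, 33.6, 8.72 and 9.93 CPM in DEX. Every DEX library was below every vehicle library, with DEX 4 and DEX 5 the lowest. The difference was 11.1-fold (log2 fold change -3.47 ± 0.55 SE, adjusted p = 0.00252) and stood at -3.23 without DEX 4 and at -3.29 after subtraction. Bglap2, its near-identical neighbour gene, changed by -2.98 (adjusted p = 0.00234), but reads shared between such copies can be split between them, so their separate values are uncertain. The promoter of Bglap is shown because this is the member of the osteoblast list with the largest fall. It covers 250 bases before to 50 bases after the start of the gene, read on the minus strand (RefSeq, GRCm38.p6, chr3:88384417-88384716), with its TATAAA box in capitals.
Bglap promoter: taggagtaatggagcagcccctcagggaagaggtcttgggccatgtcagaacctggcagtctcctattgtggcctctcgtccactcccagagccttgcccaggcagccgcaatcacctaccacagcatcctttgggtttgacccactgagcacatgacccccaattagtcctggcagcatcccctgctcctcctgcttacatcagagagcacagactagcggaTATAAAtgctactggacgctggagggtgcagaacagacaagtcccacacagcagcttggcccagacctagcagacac
On both strands, TATAAA was present in 14.82% of 22862 promoters of this length and in 7.246% of those of 6307 well-expressed genes. A perfect palindromic glucocorticoid response element was in 0 of the 22862. A match or its absence describes these letters in this window and nothing more.

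The genes of type I collagen and its companions were the most abundant members of the list. Col1a1, the major chain of type I collagen, stood at 59939, 54024, 40373, 48310 and 60531 CPM in vehicle and at 8173, 13932, 7885, 2619 and 2482 CPM in DEX. DEX 2 was the highest of the DEX libraries and still lay below the lowest vehicle library. The change was -2.91 ± 0.48 (adjusted p = 0.00303), and Col1a2, the partner chain, changed by -2.73 (adjusted p = 0.003). Sparc, a collagen-binding matrix protein, changed by -2.31 (adjusted p = 0.00203) and Alpl, the alkaline phosphatase that allows mineral to form, by -1.78 (adjusted p = 0.000806). Cgref1, a secreted calcium-binding protein, changed by -2.82 (adjusted p = 0.000344). The transcription factors of the lineage moved less. Sp7 (osterix) changed by -0.79 (adjusted p = 0.0102, and 0.0583 after subtraction), and Runx2 by -0.42, which missed the threshold (adjusted p = 0.0952) but passed it without DEX 1 (adjusted p = 0.0357). Ibsp, the bone sialoprotein gene, changed by -0.87 (adjusted p = 0.019), and its call was lost after subtraction (adjusted p = 0.0564). Sp7, Runx2 and Alpl were chosen for naming after their values were seen.

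Osteocyte genes fell to a lesser extent. All 14 genes of the list passed the filter, 12 were well expressed and 9 of the 12 were lower, with a median of -0.79. Leaving out single libraries gave 7 to 11, and 4 were lower after subtraction and 5 with the factors over well-expressed genes. Gja1, the connexin of the channels that join osteocyte processes, stood at 523, 502, 489, 406 and 499 CPM in vehicle and at 192, 245, 210, 116 and 131 CPM in DEX. The vehicle libraries were closely grouped and all DEX libraries were below them (-1.43 ± 0.21, adjusted p = 0.00156). Pdpn, which shapes the early osteocyte's processes, changed by -1.58 (adjusted p = 0.00224) and Phex, an endopeptidase that restrains loss of phosphate, by -1.48 (adjusted p = 0.0043). Dmp1, a matrix phosphoprotein of osteocytes, changed by -0.96 (adjusted p = 0.0177).

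Sost and Piezo1, which the study measures, sat at the threshold. Sost encodes sclerostin, the osteocyte's inhibitor of Wnt signalling, and stood at 502, 844, 630, 480 and 451 CPM in vehicle and at 378, 484, 417, 282 and 296 CPM in DEX. The groups overlapped, since DEX 2 lay above 2 of the vehicle libraries. The change of -0.65 ± 0.22 had an adjusted p of 0.0499, and this call was lost without DEX 1 (adjusted p = 0.0835), DEX 3 (0.0674), DEX 4 (0.0773), DEX 5 (0.0866), vehicle 1 (0.0604), vehicle 2 (0.11), vehicle 4 (0.0696) or the unnumbered vehicle library (0.0536), and after subtraction (adjusted p = 0.19). Piezo1, a cation channel opened by membrane tension, stood at 222, 186, 168, 144 and 223 CPM in vehicle and at 133, 157, 133, 77.5 and 139 CPM in DEX. DEX 2 lay above vehicle 5, and the other DEX libraries lay below all vehicle libraries. The change of -0.56 ± 0.19 missed the threshold (adjusted p = 0.0544) and passed it in DESeq2 (adjusted p = 0.021), without DEX 2 (edgeR adjusted p = 0.032) and without vehicle 5 (0.0329). After subtraction it was -0.38 (adjusted p = 0.122). Hes1, a transcriptional repressor downstream of Notch, had a mean level under 10 CPM, stood at 7.24, 6.48, 5.41, 10.5 and 6.73 CPM in vehicle and at 5.66, 7.19, 7.05, 8.56 and 5.08 CPM in DEX, and changed by -0.12 (adjusted p = 0.723), or 0.08 with the factors over well-expressed genes.

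**Figure D3:**
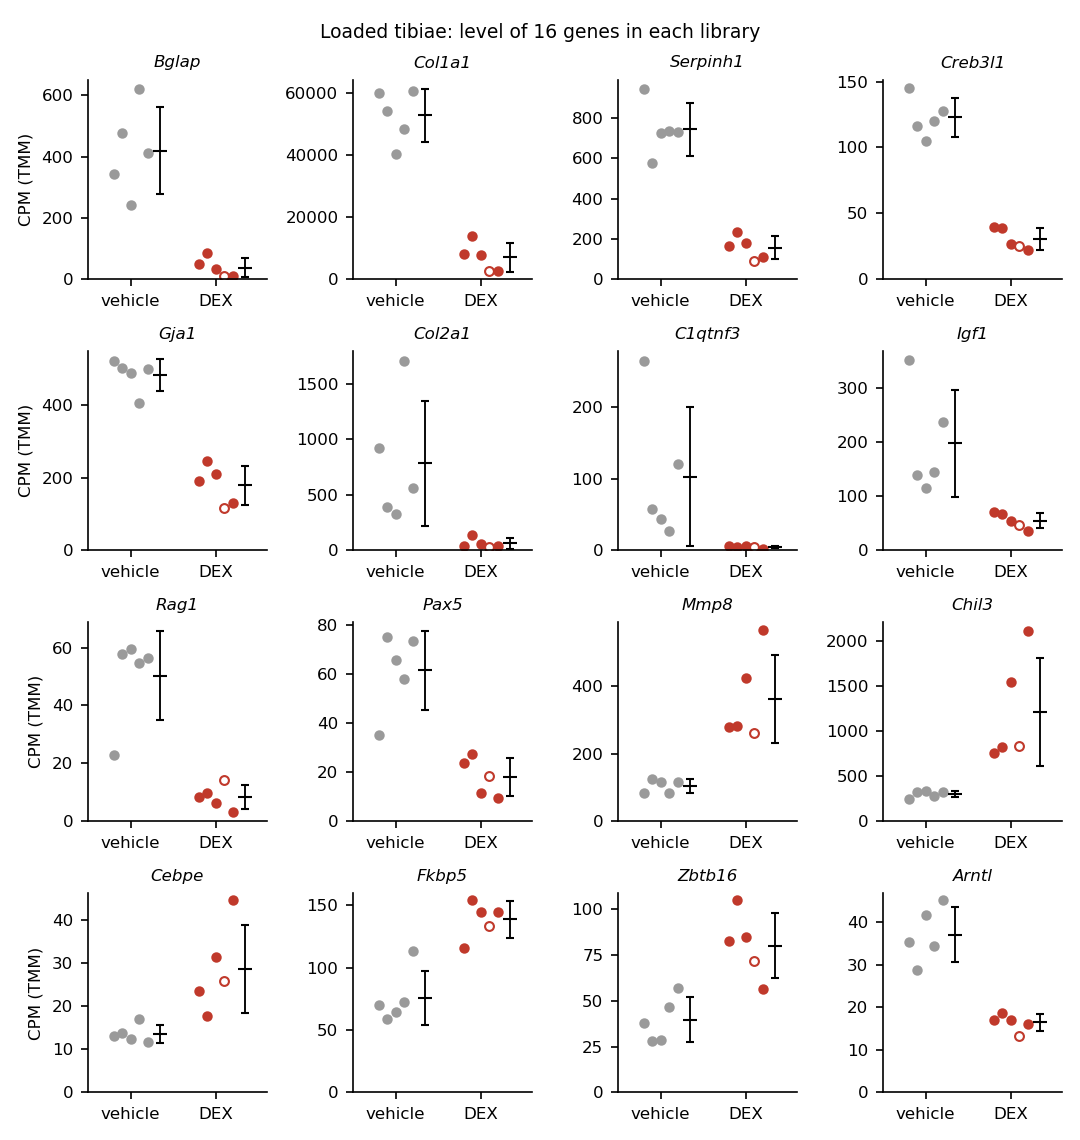
Level in CPM (linear y axes from 0) of 16 genes in the 5 loaded vehicle libraries (grey) and the 5 loaded DEX libraries (red), with DEX 4 as an open circle and black bars and whiskers giving mean and SD. In the panels of Bglap, Col1a1, Gja1 and Creb3l1 every DEX library lies below every vehicle library, and in those of Mmp8, Chil3 and Cebpe every DEX library lies above.

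The collagens outside cartilage fell together. All 18 were well expressed and 16 were lower, with a median of -1.90 and all 16 without overlap between groups, and the count was 16 without DEX 4 and after subtraction. Their summed level, type I collagen not included, was 10755 to 27819 CPM in vehicle and 2256 to 4943 CPM in DEX. Col3a1, the fibrillar collagen of loose connective tissue, changed by -2.66 (adjusted p = 0.00156). Col5a1 and Col5a2, chains of the collagen that nucleates type I fibrils, changed by -2.41 (adjusted p = 0.000816) and -2.42 (adjusted p = 0.00173). Col15a1, a collagen of basement membrane zones that osteoblasts also make, changed by -2.41 (adjusted p = 0.000583).

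The machinery that folds, cuts and crosslinks collagen fell with its clients. All 26 genes of this list were well expressed, 24 were lower, and the median was -1.31. The count was 24 with the factors over well-expressed genes and 23 after subtraction, and leaving out single libraries gave 23 to 25. Of 22 members at 10 CPM or more in both groups, 20 were lower, and P4ha3 was at that level only in vehicle. Serpinh1 encodes HSP47, the chaperone specific to procollagen, and stood at 946, 575, 727, 738 and 732 CPM in vehicle and at 165, 231, 181, 91.4 and 108 CPM in DEX. All DEX libraries lay well below the lowest vehicle library (-2.26 ± 0.25, adjusted p = 0.000346). P4ha3, a prolyl hydroxylase subunit, changed by -2.07 (adjusted p = 0.000766), and Fkbp10, a prolyl isomerase of the endoplasmic reticulum, by -1.94 (adjusted p = 0.000173). The crosslinking oxidases Loxl2 and Lox changed by -1.86 (adjusted p = 0.000351) and -1.63 (adjusted p = 0.000583). Bmp1 and Adamts2, which remove the propeptides of procollagen, changed by -1.53 (adjusted p = 0.00224) and -1.29 (adjusted p = 0.0045). Tmem38b, a potassium channel of the endoplasmic reticulum needed for collagen secretion, was the only member that rose (0.67, adjusted p = 0.0128), and it was named after its value was seen.

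The general folding machinery of the endoplasmic reticulum moved less. Of 21 well-expressed members, 6 were lower (Creb3l1, Creb3l2, P4hb, Sec61a1, Pdia3 and Herpud1) and the median was -0.39, against 10 lower in DESeq2. The edgeR count was 3 without DEX 1, 3 without the unnumbered vehicle library and 1 after subtraction. Creb3l1 encodes a membrane-bound transcription factor that drives collagen secretion in osteoblasts. It stood at 145, 116, 105, 120 and 128 CPM in vehicle and at 39.8, 38.9, 26.9, 25.3 and 22.1 CPM in DEX. The groups were far apart for its spread (-2.005 ± 0.18, adjusted p = 0.000152). The abundant chaperones Hspa5 and Calr changed by -0.39 (adjusted p = 0.155) and -0.40 (adjusted p = 0.254), which missed the threshold. In the list of amino acid synthesis and uptake genes controlled by ATF4, 3 of 15 well-expressed members were lower, near the 14.3% of all well-expressed genes, and Pycr1 and Slc1a4 were at 10 CPM or more only in vehicle. The 3 were the proline synthesis genes Pycr1 (-1.38, adjusted p = 0.00285) and Aldh18a1 (-1.13, adjusted p = 0.000582) and the amino acid transporter gene Slc1a4 (-0.91, adjusted p = 0.0323). Slc1a4 was lost without DEX 1 (adjusted p = 0.0622), DEX 3 (0.0611), DEX 5 (0.061), vehicle 1 (0.0653) or the unnumbered vehicle library (0.0639). The list median was -0.16.

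Small proteoglycans and matrix glycoproteins were lower in part. Of 11 well-expressed small leucine-rich proteoglycans, which bind collagen fibrils and set their width, 7 were lower (median -0.94), 4 without DEX 3 and 3 after subtraction. Lum changed by -1.90 (adjusted p = 0.0025), Aspn by -1.86 (adjusted p = 0.0043) and Fmod by -1.53 (adjusted p = 0.0092). Kera, of the same family, had a mean level under 10 CPM and changed by -2.20 (adjusted p = 0.00419). Bgn, the bone-rich biglycan gene, changed by -0.97 (adjusted p = 0.0227), and its call was lost without DEX 3 (adjusted p = 0.0534) and after subtraction (adjusted p = 0.168). Dcn changed by -1.04 (adjusted p = 0.0287), which was lost without DEX 3 (adjusted p = 0.0575), vehicle 1 (0.051) or the unnumbered vehicle library (0.0541) and after subtraction (adjusted p = 0.0874). Of 25 well-expressed matrix glycoproteins, 17 were lower (median -1.09), and 14 after subtraction. Fbn2, Mfap2 and Mfap4 were at 10 CPM or more only in vehicle, and 14 of the other 22 were lower. Fn1, the fibronectin gene, changed by -1.18 (adjusted p = 0.0148), Tnn, a tenascin of the periosteum, by -2.37 (adjusted p = 0.00285), and Tnc, another tenascin, by -1.32 (adjusted p = 0.00338). Fbn1, the main microfibril gene, changed by -1.94 (adjusted p = 0.00067), and Mfap4, a microfibril-associated protein, by -1.89 (adjusted p = 0.00078). Fbn2 changed by -3.39 (adjusted p = 0.000344), and 61.9% of its DEX counts were expected background.

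Matrix proteases and their inhibitors went both ways, with more members lower than higher. Of 15 well-expressed members of this list, 8 were lower and 2 higher (median -0.94), with 7 and 2 after subtraction. Of 11 members at 10 CPM or more in both groups, 5 were lower and 1 higher, since Timp1, Mmp23 and Adamts4 reached that level only in vehicle and Timp4 only in DEX. Mmp14, a membrane-bound collagenase, changed by -1.86 (adjusted p = 0.00163), and Mmp2, the gelatinase it activates, by -1.85 (adjusted p = 0.00326). The inhibitor Timp1 changed by -2.02 (adjusted p = 0.00156). Timp4 stood at 5.96, 3.00, 3.02, 8.49 and 4.34 CPM in vehicle and at 28.6, 20.7, 15.0, 27.9 and 12.3 CPM in DEX. All DEX libraries were above all vehicle libraries (2.07 ± 0.32, adjusted p = 0.00206). Timp3, the matrix-bound inhibitor, rose by 0.85 (adjusted p = 0.00942). Mmp3, below 10 CPM, changed by -2.39 (adjusted p = 0.00333), with 56.2% of its DEX counts expected as background.

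Most cartilage genes were lower in DEX. Of 20 listed genes, 17 passed the filter and 14 were well expressed, and 10 of the 14 were lower with a median of -2.40. The count was 9 to 11 in the leave-one-out fits and 10 after subtraction. In 5 of the 10 the groups did not overlap. In the other 5 (Col9a1, Col9a2, Col9a3, Col10a1 and Hapln1) they overlapped, and these had DEX means under 10 CPM, so that they counted as well expressed only through the vehicle libraries. Of 9 members at 10 CPM or more in both groups, 5 were lower. The summed level of the list was 3661 to 5569 CPM in vehicle and 610 to 2042 CPM in DEX. Col11a1, which cartilage and bone share, had a vehicle mean of 1399 CPM, against a mean sum of 4762 CPM. The part of bone cells in the sum was not tested. Col2a1, the main collagen of cartilage, stood at 920, 393, 324, 1712 and 563 CPM in vehicle and at 34.4, 140, 59.6, 29.5 and 37.8 CPM in DEX. Vehicle 5 was the highest and DEX 2 the highest of the treated libraries, and the groups did not overlap (-3.69 ± 0.55, adjusted p = 0.00188). Acan, the aggrecan core protein, changed by -3.23 (adjusted p = 0.000344). Col11a1 and Col11a2, fibril collagens shared by cartilage and bone, changed by -3.05 (adjusted p = 0.000583) and -2.21 (adjusted p = 0.00447). Sox9, the master regulator of chondrocytes, changed by -1.42 (adjusted p = 0.00777) and was named after its value was seen.

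Some cartilage genes were at or near the background level in DEX. Col9a1 stood at 23.5, 5.61, 2.14, 82.5 and 11.6 CPM in vehicle and at 0.828, 1.198, 0.661, 4.70 and 0.677 CPM in DEX. DEX 4 lay above vehicle 4, and vehicle 5 was far above the other vehicle libraries (Col9a1 change -4.05 ± 0.92, adjusted p = 0.0123). The expected background came to 161% of the DEX counts of Col9a1, 127% of those of Col9a3 (-3.90, adjusted p = 0.00838) and 82.8% of those of Cnmd, the chondromodulin gene (-3.87, adjusted p = 0.0202).

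Most fibroblast genes of periosteum and tendon were lower, and 2 were higher. All 17 genes passed the filter, 16 were well expressed, 12 were lower and 2 higher (median -1.42), and 8 and 2 after subtraction. Of 11 members at 10 CPM or more in both groups, 7 were lower and 2 higher, and C1qtnf3, Cthrc1 and Tnmd were among the 5 at that level only in vehicle. C1qtnf3, a secreted C1q-related protein of connective tissue and cartilage, stood at 265, 58.1, 42.9, 26.6 and 121 CPM in vehicle and at 5.66, 4.99, 5.62, 4.03 and 1.35 CPM in DEX. Its vehicle values spread widely and its DEX values lay together below them (-4.57 ± 0.62, adjusted p = 0.000978). Cthrc1, a collagen triple helix protein of activated fibroblasts, changed by -3.62 (adjusted p = 0.000344), Tnmd, the tenomodulin gene of tendon, by -2.36 (adjusted p = 0.00338), Col14a1 by -2.30 (adjusted p = 0.00278), and Postn, the periostin gene, by -2.25 (adjusted p = 0.000755). Thbs4, a tendon matrix protein, changed by -0.88, which missed the threshold (adjusted p = 0.0596) and passed it without DEX 2 (adjusted p = 0.0483), vehicle 2 (0.0394) or vehicle 4 (0.0488). The higher genes were Angptl7 (1.27, adjusted p = 0.0239, and 0.0561 without DEX 1 or 0.0566 without vehicle 2) and Pi16, a marker of adventitial fibroblasts (0.68, adjusted p = 0.0176, and 0.0594 without vehicle 1), both named after their values were seen.

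Osteoclast genes did not show the pattern of the bone-forming genes. Of 16 listed genes, all passed the filter and 11 were well expressed, and Ctsk and Atp6v0d2 were lower, with a median of -0.36. That share, 18.2% of the 11, was near the 14.3% of all well-expressed genes. The summed level was 2402 to 3080 CPM in vehicle and 1397 to 2576 CPM in DEX, and the groups overlapped. Mmp9 and Car2 had the highest mean levels in this sum, and the part of other cell types in it was not tested. Ctsk, the collagen-degrading cathepsin K gene, stood at 476, 331, 351, 582 and 374 CPM in vehicle and at 227, 353, 296, 204 and 296 CPM in DEX. DEX 2 lay above vehicle 2 and vehicle 4. Its change of -0.62 ± 0.20 (adjusted p = 0.0471) did not pass without DEX 1 (adjusted p = 0.101), DEX 3 (0.0632), DEX 4 (0.0737), DEX 5 (0.0583), vehicle 1 (0.0893), vehicle 5 (0.0832) or the unnumbered vehicle library (0.0664). Atp6v0d2, a subunit of the osteoclast's proton pump, changed by -0.66 (adjusted p = 0.0446), which was lost without DEX 1 (adjusted p = 0.094), DEX 4 (0.0866), DEX 5 (0.0605), vehicle 1 (0.0594) or vehicle 5 (0.0666). After subtraction Ctsk had an adjusted p of 0.166 and Atp6v0d2 of 0.152 and edgeR called 0 of the 11, while 5 of them had an unadjusted p under 0.05 as deposited and DESeq2 called 2. Without DEX 2, edgeR called 4 lower. Car2, the carbonic anhydrase that supplies protons, changed by -0.36 (adjusted p = 0.256).

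Of the receptor, ligand and decoy that control osteoclast formation, only the ligand had a mean level under 10 CPM. Tnfsf11 encodes RANKL, the ligand, and stood at 4.12, 3.10, 4.91, 3.91 and 3.92 CPM in vehicle and at 4.42, 3.89, 4.63, 6.71 and 2.71 CPM in DEX. The change of 0.16 had an adjusted p of 0.699 and was -0.03 without DEX 4, the library with the highest value. Tnfrsf11a, which encodes the receptor RANK, stood at 24.6, 16.3, 16.7, 18.5 and 20.1 CPM in vehicle and at 14.1, 20.1, 14.5, 10.4 and 12.4 CPM in DEX. Its change of -0.42 missed the threshold (adjusted p = 0.109) and passed it without DEX 2 (adjusted p = 0.0215). Tnfrsf11b encodes osteoprotegerin, the decoy receptor for RANKL, and stood at 28.3, 37.8, 32.0, 34.2 and 33.5 CPM in vehicle and at 27.9, 25.5, 16.9, 16.6 and 11.3 CPM in DEX. All DEX libraries lay below all vehicle libraries, DEX 1 by a narrow margin. Its change was -0.76 ± 0.21 (adjusted p = 0.0245), and the call was lost without DEX 3 (adjusted p = 0.0556) and after subtraction (adjusted p = 0.107).

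Genes of Wnt signalling fell in part. Wnt ligands drive osteoblast formation, and secreted antagonists bind the ligands or their receptors. All 25 listed genes passed the filter and 15 were well expressed, with 8 lower and a median of -0.62, 5 without the unnumbered vehicle library and 5 after subtraction. The antagonists Sfrp2 (-2.64, adjusted p = 0.00413), Sfrp1 (-1.82, adjusted p = 0.00997) and Wif1 (-0.91, adjusted p = 0.0121) were lower, as was the related Dkk3 (-1.94, adjusted p = 0.00307). Sfrp2 stood at 193, 64.6, 27.8, 91.0 and 93.5 CPM in vehicle and at 24.8, 16.7, 16.2, 13.1 and 4.97 CPM in DEX. The lowest vehicle library, vehicle 4, lay just above the highest DEX library. The other 4 lower members were the ligands Wnt5b (-0.92, adjusted p = 0.0064) and Wnt10b (-0.94, adjusted p = 0.0308), the intracellular inhibitor Nkd2 (-0.82, adjusted p = 0.0313) and the coreceptor Lrp6 (-0.62, adjusted p = 0.0286). Wnt5b passed in every leave-one-out fit and after subtraction. Wnt10b was lost without DEX 1, DEX 3, DEX 4, DEX 5, vehicle 2 or the unnumbered vehicle library (adjusted p = 0.0564 without DEX 1 to 0.0675 without DEX 3), Nkd2 without DEX 3 (0.0735) or the unnumbered vehicle library (0.0541), and Lrp6 without DEX 1 (0.05), vehicle 1 (0.0638) or the unnumbered vehicle library (0.064). After subtraction the adjusted p was 0.0681 for Wnt10b, 0.0783 for Nkd2 and 0.0604 for Lrp6. The ligand gene Wnt11, with a mean of 1.70 CPM and 75.4% of its DEX counts expected as background, was higher (1.72, adjusted p = 0.0416), and 1.38 without DEX 4 (adjusted p = 0.0880). Its call was also lost without DEX 1, DEX 3, vehicle 2, vehicle 4 or the unnumbered vehicle library (adjusted p = 0.0613 without vehicle 4 to 0.0977 without the unnumbered one). Wnt5b, Wnt10b and Nkd2 were named after their values were seen.

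In the insulin-like growth factor list, Igf1, Igfbp7, Igfbp4 and Igf2r were lower among 11 well-expressed genes, with a median of -0.51. Igf1 encodes a growth factor made by bone and many other tissues, and stood at 352, 139, 114, 144 and 237 CPM in vehicle and at 70.0, 66.1, 54.5, 45.8 and 35.6 CPM in DEX. All DEX libraries lay below all vehicle libraries (-1.86 ± 0.30, adjusted p = 0.00274). Igfbp7 changed by -0.98 (adjusted p = 0.0184, and 0.0578 after subtraction), Igfbp4 by -0.88 (adjusted p = 0.0257) and Igf2r by -0.74 (adjusted p = 0.0229). Without vehicle 1 the count was 2, since Igfbp4 (adjusted p = 0.0607) and Igf2r (0.0547) no longer passed, and Igfbp4 was also lost without DEX 1 (0.0513) or the unnumbered vehicle library (0.0563). Igfbp5, the binding protein stored in bone matrix, changed by -0.70, which missed the threshold (adjusted p = 0.055) and passed it without DEX 2 (adjusted p = 0.047) or vehicle 5 (0.0331). As higher, edgeR called 0 of the 11 as deposited, but 1 without DEX 4, 2 after subtraction and 2 with the factors over well-expressed genes.

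Of 28 well-expressed genes of TGF-beta and BMP signalling, 7 were lower (median -0.44), 12 without DEX 2, 11 without vehicle 5 and 3 after subtraction. The latent TGF-beta binding proteins, which tether the inactive growth factor to microfibrils, were among them: Ltbp1 changed by -0.92 (adjusted p = 0.0081), Ltbp2 by -0.93 (adjusted p = 0.0103) and Ltbp3 by -0.89 (adjusted p = 0.0135). Tgfbr2, the type II receptor, changed by -0.62 (adjusted p = 0.0216, and 0.104 after subtraction). In the Notch list edgeR called 0 of 8 well-expressed genes (1 at an unadjusted p under 0.05, and 0 in DESeq2), and the median was -0.13. Without DEX 2 edgeR called 2 of them lower, and 1 without vehicle 5.

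Immediate early genes, which respond to stimuli within minutes, went both ways. The time from the last loading session to collection is not on the labels, and the study's own description puts it within hours. Of 11 well-expressed members, Nr4a2 (-1.11, adjusted p = 0.00892) and Ccn1 (-0.89, adjusted p = 0.0216) were lower and Ier2 (0.44, adjusted p = 0.0146), Nr4a1 (0.81, adjusted p = 0.0385) and Fosb (2.31, adjusted p = 0.0334) higher. Nr4a2 was at 10 CPM or more only in vehicle and Nr4a1 and Fosb only in DEX, and of the 8 members at that level in both groups 1 was lower and 1 higher. Fosb stood at 3.67, 2.42, 5.92, 3.77 and 2.81 CPM in vehicle and at 9.53, 3.09, 7.16, 65.1 and 8.58 CPM in DEX. Only DEX 4 stood far above the rest, and without it the change was 0.93 (adjusted p = 0.0781). The Fosb call was also lost without vehicle 1 (adjusted p = 0.0642), vehicle 2 (0.0681) or the unnumbered vehicle library (0.0708). The higher calls of the list numbered 1 without DEX 4 and 1 without the unnumbered vehicle library, and without vehicle 2 they numbered 0, with Ier2 at an adjusted p of 0.0516 and Nr4a1 at 0.0727. Nr4a1 was lost without DEX 1, DEX 3, DEX 4, vehicle 2, vehicle 4, vehicle 5 or the unnumbered vehicle library (adjusted p = 0.0517 without DEX 1 to 0.0916 without DEX 4), and Ccn1 without DEX 3 (0.0508). After subtraction Fosb (adjusted p = 0.0668), Nr4a1 (0.0584) and Ccn1 (0.168) did not pass.

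Genes known as direct glucocorticoid targets were not uniformly raised after 5 days. All 20 listed genes passed the filter and 18 were well expressed, with 6 higher, 3 lower and a median of 0.04, and the same 6 and 3 counts held after subtraction. Fkbp5, the chaperone of the glucocorticoid receptor that its own ligand induces, stood at 70.1, 59.1, 64.3, 72.3 and 113 CPM in vehicle and at 116, 155, 144, 134 and 145 CPM in DEX. The unnumbered vehicle library was high and lay just below DEX 1, the lowest treated library (0.87 ± 0.17, adjusted p = 0.00777). Zbtb16, a transcription factor induced by steroid, stood at 37.9, 28.2, 28.6, 46.6 and 56.9 CPM in vehicle and at 82.7, 105, 84.9, 71.8 and 56.6 CPM in DEX. DEX 5 lay just below the highest vehicle library and the other DEX libraries lay above it (1.01 ± 0.21, adjusted p = 0.0093). Mt2, a metallothionein, rose by 1.45 (adjusted p = 0.0192), Map3k6 by 0.96 (adjusted p = 0.0141), Mt1 by 0.85 (adjusted p = 0.0316) and Cebpd by 0.55 (adjusted p = 0.0104). The Mt1 call was lost without DEX 1, DEX 4, vehicle 1, vehicle 2, vehicle 4 or the unnumbered vehicle library, with adjusted p from 0.0533 (without vehicle 1) to 0.0765 (without DEX 1).

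Other members of the list did not pass the test or were lower. Tsc22d3, which encodes GILZ, stood at 76.1, 67.4, 94.4, 75.1 and 117 CPM in vehicle and at 88.9, 122, 115, 49.8 and 84.2 CPM in DEX, and changed by 0.10 (adjusted p = 0.774). Sgk1, a steroid-induced kinase, changed by -0.01 (adjusted p = 0.96, and by 0.17 with the factors over well-expressed genes) and Per1, a clock gene with steroid response elements, by -0.56 (adjusted p = 0.107, and 0.0317 without DEX 2). Angptl4 (-1.23, adjusted p = 0.0165), Ddit4 (-1.09, adjusted p = 0.0137) and Cdkn1a (-0.87, adjusted p = 0.0112) were lower. Below 10 CPM, the steroid-responsive genes Hif3a (1.80, adjusted p = 0.0072) and Klf15 (1.38, adjusted p = 0.00932) were higher in DEX, with 25.8% and 11.8% of their DEX counts expected as background. Ddit4, Cdkn1a, Cebpd, Map3k6 and Ier2 were named after their values were seen. Of 16 genes repressed by glucocorticoids in inflammation, 10 passed the filter and 1 was well expressed, so this list could not be read here, and edgeR and DESeq2 both called 0 of that 1, which had an unadjusted p under 0.05.

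Genes of the core clock changed in both directions. Of 17 genes all passed the filter and 13 were well expressed, with 3 lower and 2 higher. Arntl encodes BMAL1, an activator of the clock, and stood at 35.3, 28.8, 41.5, 34.4 and 45.1 CPM in vehicle and at 17.1, 18.8, 17.1, 13.3 and 16.1 CPM in DEX. Both groups were tight and did not overlap (-1.16 ± 0.14, adjusted p = 0.000583). Its partners Npas2 (at 10 CPM or more only in vehicle, -1.56, adjusted p = 0.003) and Clock (-0.51, adjusted p = 0.0174) were lower too. On the repressor arm, Per3 rose by 0.77 (adjusted p = 0.00962), Nr1d2 by 0.65 (adjusted p = 0.0441) and Nr1d1, below 10 CPM, by 1.21 (adjusted p = 0.0113). Per1, a repressor counted in the glucocorticoid list, changed by -0.56, which missed the threshold (adjusted p = 0.107) and passed it without DEX 2 (0.0317). The other 8 well-expressed members, the repressors Per2, Cry1 and Cry2 among them, passed in neither direction, and 3 members were lower and 4 higher after subtraction. Nr1d2, named after its value was seen, lost its call without DEX 1, DEX 2, DEX 3, vehicle 1, vehicle 2, vehicle 4 or the unnumbered vehicle library, with adjusted p from 0.076 without vehicle 2 to 0.121 without the unnumbered vehicle library. The labels give no clock time of collection.

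Receptors for hormones of bone changed in single cases. Pth1r, the parathyroid hormone receptor of osteoblasts and osteocytes, stood at 122, 114, 88.5, 118 and 123 CPM in vehicle and at 54.3, 69.9, 46.9, 27.5 and 43.8 CPM in DEX. No DEX library reached the lowest vehicle library (-1.22 ± 0.20, adjusted p = 0.00306). Hsd11b1, the enzyme that reactivates glucocorticoids inside cells, rose by 1.15 (adjusted p = 0.0055). Nr3c1, the glucocorticoid receptor itself, changed by -0.35, which missed the threshold (adjusted p = 0.0796). Thra, a thyroid hormone receptor, changed by -0.55 (adjusted p = 0.0402), and its call was lost without DEX 1, DEX 3, DEX 4, DEX 5, vehicle 1 or the unnumbered vehicle library (adjusted p = 0.0532 without DEX 3 to 0.0834 without the unnumbered vehicle library) and after subtraction (0.129).

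B lineage genes fell. B cells arise in marrow through steps marked by rearrangement of antibody genes. All 23 genes passed the filter and 16 were well expressed, with 14 lower and a median of -1.72, 10 of them without overlap between groups. Leaving out single libraries gave 11 (without DEX 3 or DEX 4) to 15, and 10 were lower after subtraction. Of the 14, 8 were at 10 CPM or more only in vehicle, Rag1 among them, and 6 of the 8 members at that level in both groups were lower. The summed level was 543 to 1534 CPM in vehicle and 235 to 556 CPM in DEX, and these sums overlapped. Rag1 encodes the recombinase of developing lymphocytes, and stood at 23.0, 57.7, 59.5, 54.7 and 56.3 CPM in vehicle and at 8.56, 9.68, 6.28, 14.4 and 3.27 CPM in DEX. Vehicle 1 was low in its group and still above all DEX libraries (-2.59 ± 0.34, adjusted p = 0.000769). Dntt, the template-free polymerase of the same step, changed by -2.29 (adjusted p = 0.000583), and Vpreb3, a pre-B-cell chaperone below 10 CPM, by -2.39 (adjusted p = 0.00156). Pax5, which commits cells to the lineage, changed by -1.77 (adjusted p = 0.00278), and Il7r, the receptor for the survival factor IL-7, which was named after its value was seen, by -1.69 (adjusted p = 0.0047).

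Antibody genes did not follow evenly. Ighm, the IgM heavy chain, changed by -1.49 (adjusted p = 0.0388, and 0.0799 after subtraction), with vehicle 4 at 727 CPM against 138 to 344 CPM in the other vehicle libraries. The call was lost without DEX 1 (adjusted p = 0.0799), DEX 3 (0.0518), DEX 4 (0.0541), vehicle 4 (0.0802) or the unnumbered vehicle library (0.0538). Igkc, the kappa light chain constant gene, stood at 78.7, 132, 256, 112 and 114 CPM in vehicle and at 156, 146, 151, 63.3 and 138 CPM in DEX, with a change of -0.08 (adjusted p = 0.862) that turned to 0.06 with the factors over well-expressed genes and to 0.14 after subtraction. Jchain, which joins antibodies secreted by plasma cells, changed by 0.21 (adjusted p = 0.548). Of 5 well-expressed plasma cell genes, 3 were lower, of which Irf4 and Iglc2 were at 10 CPM or more only in vehicle: Irf4 (-1.47, adjusted p = 0.00203), a transcription factor of plasma cells, the lambda light chain gene Iglc2 (-1.29, adjusted p = 0.0187, and 0.0564 after subtraction), and Sdc1 (-0.92, adjusted p = 0.00469), which other cell types also make.

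Antigen presentation and interferon genes were lower in part. Of 12 well-expressed antigen presentation genes, 6 were lower (median -0.63), 2 without DEX 3 and 1 after subtraction. Cd74, the invariant chain of MHC class II, changed by -1.25 (adjusted p = 0.025), and the class II gene H2-Aa by -1.14 (adjusted p = 0.0271), which was lost without DEX 3 (adjusted p = 0.0549) and after subtraction (0.0732). Of 10 well-expressed interferon-stimulated genes, 3 were lower (median -0.47), 6 without DEX 2 and 5 without vehicle 5. The count was 2 after subtraction and 1 with the factors over well-expressed genes. The 3 lower as deposited were Irf7, a regulator of the type I interferon response (-0.60, adjusted p = 0.0194, and 0.0766 after subtraction), the RNA sensor gene Ddx58 (-0.49, adjusted p = 0.0138) and Oasl2 (-0.59, adjusted p = 0.0148). Ifit1 (-1.201, adjusted p = 0.00449) and Isg15 (-1.01, adjusted p = 0.00851) were lower at levels under 10 CPM. The T and NK cell list had 2 well-expressed genes, Tcf7, a T-lineage transcription factor, which was lower (-1.24, adjusted p = 0.00762), and Nkg7, a granule gene of cytotoxic cells, which was higher (0.99, adjusted p = 0.0171). Tcf7 was at 10 CPM or more only in vehicle and Nkg7 only in DEX.

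Neutrophil genes rose. Neutrophils mature in marrow, fill primary granules first and secondary and tertiary granules later, and leave for blood. The list named mature neutrophil also holds genes of immature and maturing cells, Ngp and Chil3 among them. Its values thus do not mark mature cells alone. All 15 genes of the mature neutrophil list were well expressed, and 11 were higher with a median of 1.08, 8 of them without overlap between groups (2.20% of well-expressed genes were higher without overlap). Their summed level was 4252 to 6393 CPM in vehicle and 8121 to 20444 CPM in DEX. The count was 7 without the unnumbered vehicle library, up to 12 in the other leave-one-out fits, and 13 after subtraction. Chil3, which encodes a chitinase-like lectin of maturing neutrophils and alveolar macrophages, stood at 248, 324, 336, 281 and 331 CPM in vehicle and at 760, 821, 1548, 837 and 2119 CPM in DEX. DEX 3 and DEX 5 were the highest, and every DEX library was above every vehicle library (2.00 ± 0.29, adjusted p = 0.00157). Mmp8, the neutrophil collagenase, stood at 82.5, 126, 115, 84.5 and 115 CPM in vehicle and at 278, 282, 423, 263 and 566 CPM in DEX (1.79 ± 0.23, adjusted p = 0.000775). Lcn2, the iron-siderophore binding lipocalin, rose by 1.73 (adjusted p = 0.0017) and Ngp, a granule protein of immature neutrophils, by 1.14 (adjusted p = 0.0141).

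Other neutrophil genes were less stable to leaving out a library. S100a9 and S100a8 encode the subunits of calprotectin. S100a9 rose by 1.00 (adjusted p = 0.0249), which was lost without vehicle 1 (adjusted p = 0.0717), vehicle 2 (0.0511) or the unnumbered vehicle library (0.0698), and S100a8 by 1.36 (adjusted p = 0.0183), which was lost without the unnumbered vehicle library (0.0507). Ltf, the lactoferrin gene of secondary granules, stood at 750, 1051, 1093, 617 and 882 CPM in vehicle and at 751, 1133, 2106, 651 and 2951 CPM in DEX, with 2 DEX libraries within the vehicle range, and its change of 0.79 missed the threshold (adjusted p = 0.147). The primary granule list also holds the transcription factors Cebpe and Gfi1, described below, which are not granule genes. Of its 9 members, all well expressed, 7 were higher, Cebpe among them, with a median of 0.94. The count was 4 without vehicle 2, 4 without the unnumbered vehicle library and 8 after subtraction. Elane, the neutrophil elastase gene, rose by 0.92 (adjusted p = 0.0159), Prtn3 by 1.07 (adjusted p = 0.0217) and Mpo by 0.88 (adjusted p = 0.0215). Mpo was lost without vehicle 1 (adjusted p = 0.0663), vehicle 2 (0.0533) or the unnumbered vehicle library (0.0647), and Prtn3 without vehicle 2 (0.0535) or the unnumbered vehicle library (0.0562).

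The transcription factor Cebpe, which drives the later granules, stood at 13.2, 13.7, 12.3, 17.1 and 11.7 CPM in vehicle and at 23.6, 17.7, 31.5, 25.8 and 44.6 CPM in DEX. The lowest DEX library lay just above the highest vehicle library (1.08 ± 0.22, adjusted p = 0.00803). Gfi1, a repressor needed for neutrophil fate, changed by 0.28 (adjusted p = 0.389). The promoters of granule genes are shown with matches to TTGCNNAA, a core of the site bound by C/EBP factors, because the granule genes and Cebpe moved the same way. A match was present on either strand in the windows of 6 of 14 mature neutrophil list members with a single promoter in the RefSeq table. It was in 2 of 6 such members of the primary granule list, but also in 4 of 10 of the B lineage list, which fell. Beside these, it was in 10.82% of 22862 promoters and 7.658% of those of 6307 well-expressed genes. The fragments below are from GRCm38.p6, read on the gene's strand, with the match in capitals and its place before the gene's start. They are of 5 genes described here, with the match nearest the start for Ngp, and the other match in Ngp and those in Retnlg, Fcnb and Ms4a3 are not shown.
Mmp8 (chr9:7558401-7558426, plus strand, 19 bases before the start): aggcagaagTTGCTCAAgatgtagct
Lcn2 (chr2:32387939-32387964, minus strand, 216 bases before): cccttcctgTTGCTCAAccttgcaca
Ngp (chr9:110419788-110419813, plus strand, 11 bases before): cggcagttcTTGGGCAAggcagtctc
Ltf (chr9:111019208-111019233, plus strand, 75 bases before): gcaggcctaTTGGGCAAtagggtggg
S100a9 (chr3:90695941-90695966, minus strand, 236 bases before): taggctgtcTTGCTTAAgatttgggc
Mmp8 had the lowest adjusted p among the well-expressed members of the mature neutrophil list. Its whole window covers chr9:7558179-7558478 on the plus strand and holds this match once.
Mmp8 promoter: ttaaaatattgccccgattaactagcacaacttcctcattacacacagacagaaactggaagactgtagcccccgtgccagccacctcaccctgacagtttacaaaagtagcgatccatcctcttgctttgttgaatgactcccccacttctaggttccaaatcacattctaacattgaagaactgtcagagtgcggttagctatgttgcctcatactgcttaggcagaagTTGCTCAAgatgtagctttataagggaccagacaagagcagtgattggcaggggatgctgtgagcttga
Ltf carries a match and did not pass the test, so the letters and the calls do not coincide gene by gene, and a match here is a description of sequence, not a bound site.

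**Figure D4:**
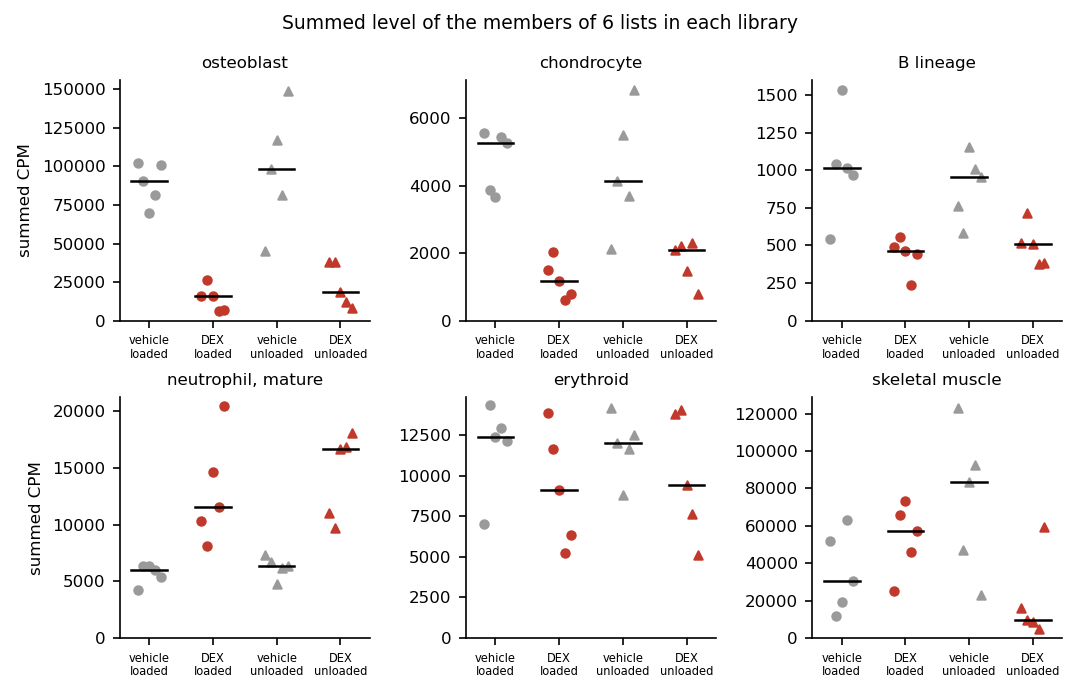
Summed level in CPM (linear y axes from 0) of 6 gene lists in each library of the 4 groups (x axis; vehicle grey, DEX red, loaded circles, unloaded triangles), with bars at the median of 5 libraries. In loaded tibiae the osteoblast and chondrocyte sums do not overlap between vehicle and DEX (69586 to 101948 against 5994 to 26645 CPM for osteoblast genes), while the erythroid and muscle sums do. The chondrocyte sum includes Col11a1 and Col11a2, which cartilage and bone share.

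Eosinophil genes were lower, while red cell and platelet lists held few calls. The list of eosinophils, basophils and mast cells had 3 well-expressed genes, all lower: Epx (-1.23, adjusted p = 0.0144) and Prg2 (-1.03, adjusted p = 0.026), which encode eosinophil granule proteins, and Ccr3, the eotaxin receptor (-0.60, adjusted p = 0.025). Prg2 was lost without DEX 1 (adjusted p = 0.0564) or vehicle 2 (0.0575) and Ccr3 without DEX 3 (0.0552) and after subtraction (0.0796). Of 22 well-expressed erythroid genes edgeR called 1 lower, the blood group gene Rhd (-0.80, adjusted p = 0.0245, and 0.0731 after subtraction), 3 by DESeq2, 7 without DEX 2 and 6 without vehicle 1, with a median of -0.43. The erythroid sum was 7005 to 14387 CPM in vehicle and 5259 to 13868 CPM in DEX. Of 12 megakaryocyte and platelet genes edgeR called 0, with 0 at an unadjusted p under 0.05 and 0 by DESeq2, and the median was 0.01.

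Of 18 well-expressed monocyte and macrophage genes, Adgre1, Cd68 and C1qc were lower and Ly6c2 higher (median -0.40), with 11 lower without DEX 2. As shares these were 16.7% lower and 5.56% higher, near the 14.3% and 3.73% of all well-expressed genes. Adgre1, the F4/80 antigen of resident macrophages, changed by -0.63 (adjusted p = 0.013), Cd68 by -0.57 (adjusted p = 0.0198) and C1qc by -0.60 (adjusted p = 0.0243, and 0.0533 without DEX 3). Ly6c2, a surface marker of inflammatory monocytes, rose by 0.79 (adjusted p = 0.048), which was lost without DEX 1, DEX 3, DEX 5, vehicle 1, vehicle 2, vehicle 5 or the unnumbered vehicle library (adjusted p = 0.0648 without DEX 1 to 0.12 without vehicle 1). After subtraction Cd68 (adjusted p = 0.0973) and C1qc (0.159) did not pass. Lyz2, the lysozyme gene of the whole myeloid lineage, changed by 0.46 (adjusted p = 0.242).

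Stroma, vessels and fat showed single changes. Of 13 well-expressed marrow stroma genes, Tnfrsf11b, Cxcl14, Pdgfra and Pdgfrb were lower (median -0.42). DESeq2 called 5 lower, and 6 were lower at an unadjusted p under 0.05. The edgeR count was 0 without DEX 3, 1 without DEX 5, vehicle 1 or the unnumbered vehicle library, 2 without DEX 4, 7 without DEX 2 and 0 after subtraction. Pdgfra changed by -0.68 (adjusted p = 0.0397), Pdgfrb by -0.59 (adjusted p = 0.036) and Cxcl14 by -0.68 (adjusted p = 0.0306). Pdgfra and Cxcl14 were lost without DEX 3, DEX 4, DEX 5, vehicle 1 or the unnumbered vehicle library (adjusted p = 0.0685 to 0.0805 for Pdgfra and 0.0579 to 0.0678 for Cxcl14), and Pdgfrb without the same libraries other than DEX 4 (0.0631 to 0.0748). Cxcl12, the chemokine that retains blood stem cells, changed by -0.46 (adjusted p = 0.145). Of 22 well-expressed endothelial genes edgeR called Cdh5, the VE-cadherin gene (-0.57, adjusted p = 0.0285), which was lost without DEX 3 (adjusted p = 0.0513), vehicle 1 (0.062) or the unnumbered vehicle library (0.0562) and after subtraction (0.107). The edgeR count was 4 without DEX 2 and 2 without vehicle 4. Of 9 smooth muscle and pericyte genes, Cspg4, the NG2 proteoglycan of pericytes, was lower (-0.96, adjusted p = 0.00424) and Lmod1, a smooth muscle actin nucleator at 10 CPM or more only in DEX, higher (1.16, adjusted p = 0.0113), and 2 were lower without DEX 2. The share called lower was 4.55% in the endothelial list and 11.1% in the smooth muscle and pericyte list, against 14.3% of all well-expressed genes.

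Of 14 well-expressed adipocyte genes, 4 genes of triglyceride storage and release were higher and the median was 0.07. Plin4, a lipid droplet coat protein, rose by 1.10 (adjusted p = 0.0245), Dgat2, which makes triglyceride, by 1.00 (adjusted p = 0.0103), Pnpla2, the first lipase, by 0.61 (adjusted p = 0.0147), and Lipe, the hormone-sensitive lipase, by 0.52 (adjusted p = 0.0407). Without vehicle 2 the count was 2, with Plin4 at an adjusted p of 0.0614 and Lipe at 0.102. Lipe was lost in each leave-one-out fit but those without DEX 5 and without vehicle 1, with adjusted p from 0.0577 without DEX 2. Pnpla2 and Lipe were named after their values were seen.

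Muscle RNA overlapped between treatments. The summed level of 24 skeletal muscle genes was 11543 to 63062 CPM in vehicle and 25262 to 73069 CPM in DEX. Only Myh1, a fast myosin heavy chain, was higher (1.34, adjusted p = 0.0368), which was lost without DEX 3 (adjusted p = 0.0733), DEX 4 (0.0601), DEX 5 (0.061), vehicle 1 (0.0581), vehicle 2 (0.0772), vehicle 4 (0.0659) or the unnumbered vehicle library (0.0934), and the list median was 0.52. The list count was 2 without DEX 1, 2 without DEX 2 and 3 without vehicle 5. Ttn changed by 0.69 (adjusted p = 0.283) and Myh4 by 0.30 (adjusted p = 0.668). The part of muscle RNA in the changes of genes that muscle shares with other tissue was not tested.

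Lists of general cell functions held few calls. In the respiratory chain, edgeR called 0 of 22 nuclear genes (0 at an unadjusted p under 0.05 and 0 by DESeq2, median -0.0017) and 0 of 13 mitochondrial genes (1 at an unadjusted p under 0.05 and 0 by DESeq2, median 0.01). Without DEX 5, 1 mitochondrial gene was called higher. Of 26 cell cycle genes edgeR called 0, with 0 at an unadjusted p under 0.05 and 0 by DESeq2. Of 34 well-expressed proteasome genes it called 0, with 1 at an unadjusted p under 0.05 and 0 by DESeq2. Of 83 well-expressed ribosomal protein genes, Rpl29 (-0.64, adjusted p = 0.0485) and Rpl41 (-0.47, adjusted p = 0.0307) were lower (median -0.21), against 7 in DESeq2 and 7 at an unadjusted p under 0.05 that were lower, and 0 without the unnumbered vehicle library or after subtraction. Rpl29 was also lost without DEX 1 (adjusted p = 0.0767), DEX 4 (0.0643), DEX 5 (0.0655), vehicle 1 (0.072), vehicle 2 (0.0558) or vehicle 5 (0.0845), and Rpl41 without DEX 3 (0.0573). Of 16 well-expressed genes of glycolysis and hypoxia, 2 were higher: Egln3, an oxygen sensor at 10 CPM or more only in DEX (1.197, adjusted p = 0.0113), and Ero1l, an oxidase of disulfide formation (0.70, adjusted p = 0.0212, and 0.0657 without vehicle 1 or 0.0612 without the unnumbered vehicle library). The count was 6 after subtraction and 6 with the factors over well-expressed genes.

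The largest changes were listed by a rule over all well-expressed genes, taking those that passed with and without DEX 4 and whose groups did not overlap. It was met by 1215 genes, and by 1176 once predicted, Rik-type and pseudogene entries were left out. The 12 largest falls were C1qtnf3, Col2a1, Cthrc1, Cpz, Bglap, Fbn2, Acan, Mest, Col11a1, Bglap2, Col1a1 and Cgref1, and their changes ran from -4.57 to -2.82. The order is a description only. The DEX means of C1qtnf3 (4.33 CPM), Cthrc1 (4.84), Cpz (2.52), Fbn2 (9.55), Mest (5.64) and Cgref1 (7.58) were under 10 CPM, so these 6 counted as well expressed only through the vehicle libraries. The expected background share of their DEX counts was 61.9% for Fbn2, 36.9% for Cpz, 31.7% for Mest, 26.5% for C1qtnf3, 14.7% for Cthrc1 and 11.9% for Cgref1. All but Cpz and Mest have been given above. Cpz, a carboxypeptidase that binds Wnt ligands in the growth plate, stood at 30.8, 30.5, 19.6, 46.9 and 32.9 CPM in vehicle and at 1.93, 6.89, 1.43, 1.68 and 0.677 CPM in DEX (-3.61 ± 0.45, adjusted p = 0.000583). Mest, an imprinted gene of growing mesenchyme, changed by -3.11 (adjusted p = 0.000976). Of the 12 largest rises, Timp4, Chil3, Mmp8 and Lcn2 have been given above. Il1r2, the decoy receptor for interleukin 1 that neutrophils carry, stood at 2.47, 6.19, 6.42, 3.77 and 10.3 CPM in vehicle and at 18.1, 19.0, 23.8, 39.3 and 50.2 CPM in DEX (2.35 ± 0.38, adjusted p = 0.00254).

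Another 6 of the largest rises were Pclo, Grin2b, Synb, Ntrk3, Tmem267 and Slc4a8, all 6 highest in DEX 4. These 6, Timp4 and Il1r2 had vehicle means of 3.43 to 5.83 CPM and counted as well expressed only through the DEX libraries. Pclo, a protein of the presynaptic zone of neurons, stood at 2.57, 1.93, 5.92, 6.34 and 1.19 CPM in vehicle and at 17.3, 9.08, 15.1, 43.3 and 9.37 CPM in DEX. Its change was 2.42 (adjusted p = 0.00965) and 1.87 without DEX 4. The expected background share of the DEX counts was 59.6% for Pclo, 53.7% for the glutamate receptor gene Grin2b, 60.0% for the neurotrophin receptor gene Ntrk3 and 32.6% for the bicarbonate transporter gene Slc4a8. It was 11.5% for Synb and 12.2% for Tmem267, beside 13.2% for Timp4 and 2.89% for Il1r2. All 6 kept an adjusted p under 0.05 after subtraction, with 0.0349 for Grin2b the highest of them.

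The same treatment contrast in the unloaded right tibiae is given beside these values. In the unloaded libraries, 1495 of the same 10459 genes were lower (14.3%) and 787 higher (7.52%), and groups did not overlap for 9.61% of them as lower and 5.38% as higher. The osteoblast list had 12 of 17 lower (median -1.43), the collagens 12 of 18 (-1.19), the collagen folding list 18 of 26 (-1.07), the chondrocyte list 4 of 14 (-0.30) and the B lineage list 11 of 16 (-1.37). The mature neutrophil list had 13 of 15 higher (1.23) and the primary granule list 9 of 9 (1.08). The nuclear respiratory chain list had 13 of 22 lower (-0.67), the mitochondrial one 9 of 13 (-1.13) and the skeletal muscle list 10 of 24 (-1.96). In the unloaded libraries the muscle sum was 22874 to 122802 CPM in vehicle and 4884 to 59339 CPM in DEX, with medians of 83447 and 9838 CPM and overlapping groups, against medians of 30482 and 57014 CPM in the loaded ones. Its part in the respiratory chain values was not tested. Single genes can be set side by side in the same way: Col2a1 changed by -3.69 loaded and -1.67 unloaded, Acan by -3.23 and -1.04, Timp4 by 2.07 and 0.54, Zbtb16 by 1.01 and -0.04, Bglap by -3.47 and -3.17, Mmp8 by 1.79 and 2.18, Piezo1 by -0.56 and -0.13, and Hes1 by -0.12 and -0.92.

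The test of the difference between the loaded and the unloaded DEX effect passed for 0 of 22659 genes in edgeR (0.00%), with a lowest adjusted p of 0.0854. At an unadjusted p under 0.05 there were 3528 genes, and DESeq2 called 158 at its adjusted p. For Acan the difference was -2.21 (adjusted p = 0.107), for Col2a1 -2.03 (adjusted p = 0.266) and for Zbtb16 1.03 (adjusted p = 0.184). The DESeq2 calls were 0.697% of the genes tested, with 147 more positive and 11 more negative in loaded tibiae. Among the 190 genes with sensitivity values they took in 6: Col9a1 (adjusted p = 0.0418), Col9a3 (0.00186), Acan (0.00236), Sox9 (0.0309) and Sfrp1 (0.0134), whose changes were more negative in loaded than in unloaded tibiae, and Nr4a1 (0.04996), whose change was more positive in loaded ones. The study used the right tibia of each mouse as the unloaded control, and libraries of both limbs carry the same numbers, but no label says that a number marks a mouse. The unnumbered vehicle libraries of both limbs also share a column number, which is on no label, and were left out of the pairs. Deviations from the group means correlated at -0.14 to 0.58 over the 9 pairs of limbs of the same number, and 5 of the 9 loaded libraries correlated best with their own number. With the number as a block in these 18 libraries edgeR called 232 differences (0.982% of 23623 genes), of which 223 were more positive in loaded tibiae, against 8 in the same libraries with no block. Of the same 190 genes the block called Acan (-2.17 ± 0.42, adjusted p = 0.0402), Sfrp1 (-1.85 ± 0.38, adjusted p = 0.0426), Nr4a1 (1.36 ± 0.29, adjusted p = 0.0478) and Myh1 (4.15 ± 0.80, adjusted p = 0.0402), the last a muscle gene. Whether the DEX effect on these genes differs between limbs thus depended on the tool and on the pairing.

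**Figure D5:**
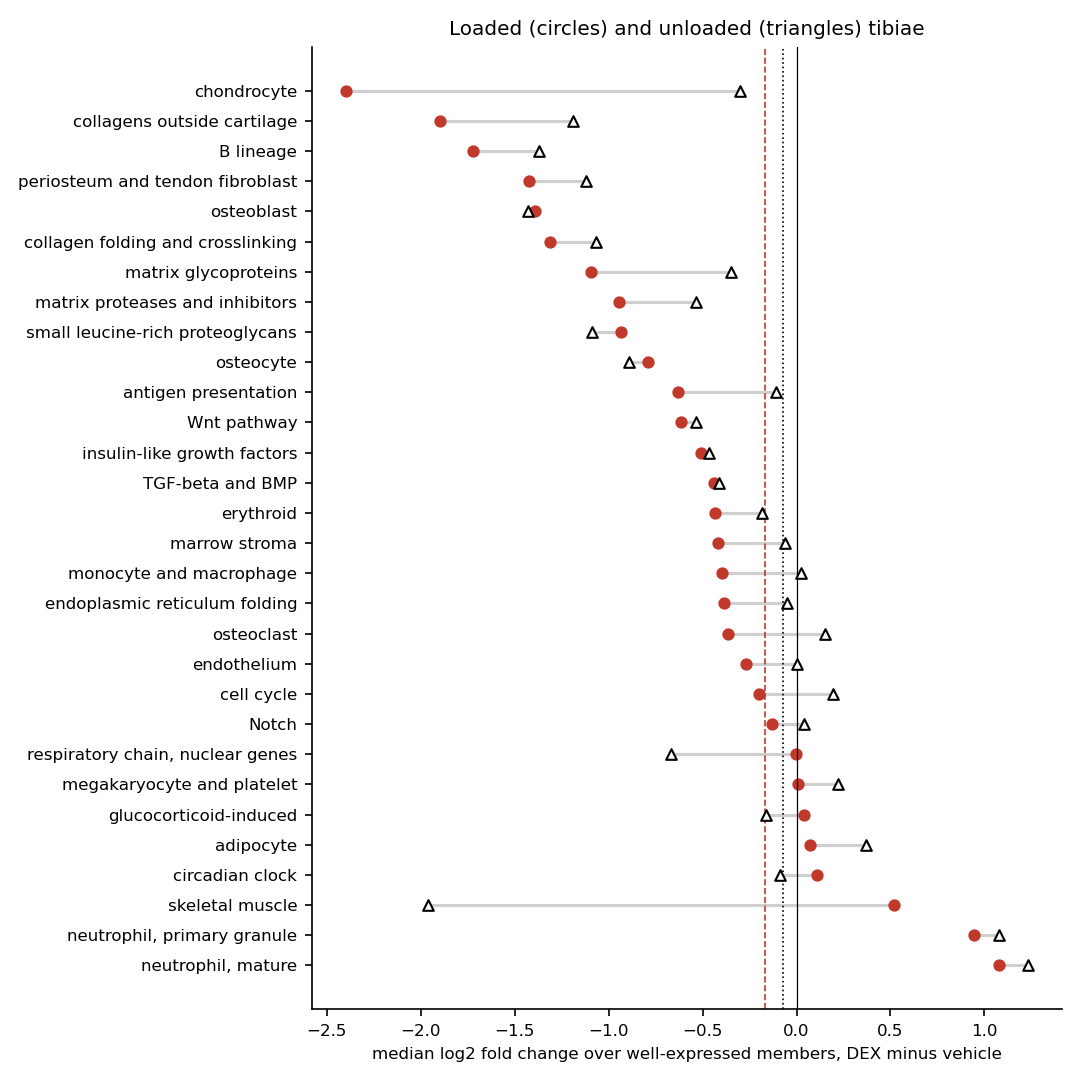
Median log2 fold change (DEX over vehicle, x axis) of the well-expressed members of each gene list (y axis) in loaded (circles) and unloaded (triangles) tibiae, with the medians of all well-expressed genes as a dashed line (loaded, -0.17) and a dotted line (unloaded, -0.07). Osteoblast medians lie close together (-1.39 and -1.43), while those of skeletal muscle lie far apart (0.52 and -1.96).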

How the data were processed

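Total RNA of crushed frozen tibiae was sequenced after library preparation with a low-input stranded total RNA kit. Per the labels, the authors aligned reads with STAR 2.7.10a and estimated expected counts per gene with RSEM 1.2.28 on GRCm38, and the deposited table holds these expected counts, not normalized. Whether counting used strand is not given in the sources used here. The table has 0 columns of samples outside the series. A vehicle column in each limb carries a number that is on no label, and was used as a library of its group with no number.

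Expected counts were rounded to whole numbers, filtered with filterByExpr, scaled by trimmed mean of M-values (TMM) and tested with the edgeR 4.0.16 quasi-likelihood F test (R 4.3.3, threshold 0.05). SE is the log2 fold change divided by the square root of F. CPM values use TMM factors. Background was measured over 1426 olfactory and vomeronasal receptor genes, and its subtraction, which uses reads per exon base and GENCODE exon lengths (54409 of 54446 genes matched), was added after the data were seen. Alternatives were DESeq2 1.42.0, other scalings and filters, leaving out each library, a block on shared numbers, a background covariate and a joint fit of the 4 groups. The tests were checked on simulated counts.

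Members and lists were chosen with earlier results of these data known. Genes were named by rule: the 12 largest falls and rises among well-expressed genes that passed with and without DEX 4 without overlap, leaving out predicted and Rik-type names; in each list the 4 members of highest mean CPM and the 4 of largest change among those that passed, or every member of lists of 9 or fewer; 5 glucocorticoid targets (Fkbp5, Tsc22d3, Per1, Zbtb16 and Sgk1); and 6 of the genes the study measures (Piezo1, Hes1, Tnfrsf11b, Tnfsf11, Tnfrsf11a and Sost). Of 190 genes with sensitivity values, 19 were outside this rule, and not every gene that the rule names is reported here. The labels do not say what a replicate is, and the study gives its number of replicates in mice. Same-numbered DEX and vehicle libraries did not deviate together (correlations -0.23 to 0.07 for 4 numbers), so no pairing was used. A block on limbs of the same number was added after the data were seen.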

Additional observations from a re-analysis of the deposited data

Results flagged for a closer look

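In groups of 5 loaded libraries, 29 of the 380 gene groups checked held a library far from the other 4 (Dixon's criterion at the 95% level, which chance alone meets in about 1 group in 20). Among vehicle libraries, vehicle 5 was high for Ibsp (2248 CPM, others up to 1597), Cgref1 (81.6 CPM, others up to 49.0), Atp6v0d2 (107 CPM, others up to 61.0), Col9a1 (82.5 CPM, others up to 23.5) and Rpl41 (303 CPM, others up to 237). Vehicle 1 was high for Aspn (221 CPM, others up to 142) and Postn (2058 CPM, others up to 1178), and low for Rag1 (23.0 CPM, others from 54.7), Irf4 (14.8 CPM, others from 24.2), Lcn2 (308 CPM, others from 465) and Rhd (33.3 CPM, others from 58.0). Vehicle 2 was high for Phex (248 CPM, others up to 166) and low for Pycr1 (10.2 CPM, others from 15.1). Vehicle 4 was low for Pth1r (88.5 CPM, others from 114) and high for Adgre1 (49.6 CPM, others up to 39.3). The unnumbered vehicle library was high for the glucocorticoid targets Fkbp5 (113 CPM, others up to 72.3) and Map3k6 (20.6 CPM, others up to 12.3).

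Among DEX libraries, DEX 4, the library with the most background reads, was high for Col9a1 (4.70 CPM, others up to 1.198), Cnmd (3.19 CPM, others up to 0.966), Fosb (65.1 CPM, others up to 9.53), Pclo (43.3 CPM, others up to 17.3), Synb (37.8 CPM, others up to 16.2), Tmem267 (43.6 CPM, others up to 21.7), Slc4a8 (37.6 CPM, others up to 18.2) and Wnt11 (4.87 CPM, others up to 2.42), and low for Igkc (63.3 CPM, others from 138). The part of background in these values was not tested gene by gene. DEX 2 was high for Col2a1 (140 CPM, others up to 59.6) and Cpz (6.89 CPM, others up to 1.93). DEX 5 was low for Cthrc1 (1.24 CPM, others from 5.20).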

How the results depend on the processing

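Of 168 named genes that passed in loaded tibiae, 168 passed with DESeq2, 168 with DESeq2 size factors, 148 with factors over well-expressed genes, 146 with no filter, 144 with at least 10 counts in every library, 153 without DEX 4, 136 after background subtraction, 126 in every leave-one-out fit, 111 with the replicate block, 95 in the same libraries with no block and 6 with the background covariate. Over all genes tested, 4206 passed as reported, 9016 with no filter, 2203 with at least 10 counts in every library, 8112 with all 4 groups in one model, 1768 after subtraction, 30 with the background covariate and 2696 to 5822 in the leave-one-out fits. Of the well-expressed genes, 1885 passed as reported, 3048 with all 4 groups, 26 with the covariate and 1174 to 2414 in the leave-one-out fits, the lowest without the unnumbered vehicle library and the highest without DEX 2. At a mean of at least 30 CPM there were 1110. The covariate separates the groups completely, so its fit cannot tell background from treatment. Without DEX 4, 3018 passed, and 1667 after subtraction. The unloaded contrast gave 2922, and 1351 (without unloaded DEX 4) to 3135 in the leave-one-out fits. The difference between limbs gave 0 in edgeR, 158 in DESeq2, 232 with limbs of the same number as a replicate block and 8 in the same libraries with no block. The replicate block on 4 shared numbers gave 2326 of all genes and 838 of the well-expressed ones, against 1120 and 589 in the same 8 libraries with no block. Sharing a number was not shown to pair the libraries, and a call lost under the block is not read as a weaker effect.

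Signs turned for genes that had not passed. With the covariate the changes were 0.17 for Piezo1, -0.50 for Tnfsf11, 0.075 for Tnfrsf11a, 0.25 for Calr, 0.25 for Cxcl12, -0.0050 for Jchain and 0.23 for Sgk1, and Fosb, which had passed, came to -1.15. With factors over well-expressed genes they were 0.078 for Hes1, 0.17 for Sgk1 and 0.059 for Igkc. With at least 10 counts they were 0.10 for Sgk1 and 0.0074 for Igkc, with no filter -0.077 for Tnfsf11 and -0.056 for Tsc22d3, and after subtraction 0.18 for Sgk1 and 0.14 for Igkc. Sgk1 came to 0.13 with the block and 0.12 in the same libraries without it. Leaving out single libraries gave -0.032 to 0.28 for Tnfsf11, -0.059 to 0.25 for Tsc22d3, -0.15 to 0.068 for Sgk1 and -0.27 to 0.22 for Igkc. The cause was not tested.

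Weakly expressed genes carried more expected background: at under 3 CPM its median share of the DEX counts was 46.3%, against 0.417% from 300 CPM up. Changes of genes under 10 CPM and of genes with a large background share are read least firmly.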
